A study of Mus musculus with 12 samples.

Results

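Antimicrobial peptides and proteins with a whey acidic protein (WAP) domain were followed in mouse skin through 9 genes: the beta-defensin genes Defb1, Defb6, Defb8 and Defb14, the cathelicidin gene Camp, the lipocalin gene Lcn2, and the WAP genes Slpi, Wfdc3 and Wfdc12. The genes were matched by mouse symbol to the gene IDs of a table of 55401 genes, and all 9 were found. They were chosen by name with earlier FPKM results of these data in view. Wfdc3 and Defb8 had been selected on their WT values of day 0 and day 7, as among the genes with the largest falls. Their differences between days are therefore given as a description and support nothing. The same holds for their differences between genotypes, which use the same WT values. Of the 9 genes, 8 had a mean of at least 1 FPKM (a fragment count scaled by transcript length and sequencing depth) over all samples and entered the test, and Camp did not.

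Beta-defensins are small cationic peptides, held together by disulfide bonds, that epithelial cells secrete and that damage microbial membranes. Some are made constantly by keratinocytes, and others are switched on by cytokines or injury. Cathelicidin and lipocalin 2 are also stored in neutrophil granules, and WAP domain proteins such as the secretory leukocyte protease inhibitor encoded by Slpi restrain the proteases that neutrophils release.

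RNA was sequenced from samples labelled dermis, the connective tissue beneath the epidermis, of C57BL/6 mice aged 6 weeks. Wild-type (WT) mice and Cthrc1-/- mice, which lack the secreted protein gene Cthrc1, were compared at day 0 and day 7 after wounding. The 4 groups of genotype and day held 3 biological replicates each, 12 samples in all, and total counts ran from 48329668 to 76938132 per sample. Nothing further is given in the labels on how the Cthrc1-/- allele was made, in which cells it acts, or whether the days came from the same animals.

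Every library labelled Cthrc1-/- held at most 15 counts of Cthrc1, and every WT library held at least 1813. Epidermal transcripts were abundant in these samples labelled dermis: the basal keratinocyte gene Krt14 lay between 1162 and 3459 FPKM, beside 136.5 to 3122 FPKM of the fibroblast gene Col1a1. Libraries also stood apart within groups. WT day 7 replicate 1 had a summed level of 20 neutrophil genes of 5611 FPKM, against 792 and 84.1 FPKM in replicates 2 and 3. Summed hair follicle genes (15 measured of 16 listed) were 269, 5613 and 13610 FPKM in Cthrc1-/- day 0 replicates 1 to 3, against 14.3 to 18.0 FPKM in WT day 0. Since these are bulk samples, fewer cells of a type and less RNA per cell cannot be told apart. Fibroblast genes, 10 in number, summed to 5183 to 6775 FPKM in WT day 0 and to 407 to 2665 FPKM in Cthrc1-/- day 0, without overlap. Of these 10 genes 8 had an unadjusted p under 0.05 there, where 28.4% of all genes tested did. Of the 10, 1 was called, Col1a2, which was lower, where 5.78% of all genes were called. The median log2 difference of the 10 genes was -1.44. The day 0 comparisons of genotypes below, including those of Defb6, Wfdc18 and Klk7, are between these samples, and the part of the fibroblast level in them was not tested.

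Of the 9 genes, 7 lie in 2 gene clusters. On GRCm38, Defb14 (ENSMUSG00000046354, chr8:19194357-19195212, plus strand), Defb6 (ENSMUSG00000050756, chr8:19225478-19228209, plus strand) and Defb8 (ENSMUSG00000031471, chr8:19445769-19447606, minus strand) lie in this order on chromosome 8, with gaps of 30.3 kb and 217.6 kb that hold other defensin genes, among them Defb4 in the first and Defb3 in the second. Defb1 (ENSMUSG00000044748, chr8:21776599-21795185, plus strand) follows 2329 kb beyond Defb8. Wfdc12 (ENSMUSG00000042845, chr2:164189231-164190608), Slpi (ENSMUSG00000017002, chr2:164354070-164389095) and Wfdc3 (ENSMUSG00000076434, chr2:164731180-164745931) all lie on the minus strand of chromosome 2, with gaps of 163.5 kb and 342.1 kb. Lcn2 (ENSMUSG00000026822, chr2:32384633-32388252, minus strand) is far from them on the same chromosome, and Camp (ENSMUSG00000038357, chr9:109847379-109849617, minus strand) is on chromosome 9. All 9 are annotated as protein coding.

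Defb6 and Defb8 are shown with the 250 bases before their annotated starts, because they share most of this sequence and yet had different levels across the samples. The sequences are from RefSeq on GRCm38.p6, written 5′ to 3′ in the direction of transcription, and the interval is chr8:19225228-19225477 on the plus strand for Defb6 and chr8:19447607-19447856 on the minus strand for Defb8. Capitals mark runs of at least 12 bases found exactly in both.
Defb6: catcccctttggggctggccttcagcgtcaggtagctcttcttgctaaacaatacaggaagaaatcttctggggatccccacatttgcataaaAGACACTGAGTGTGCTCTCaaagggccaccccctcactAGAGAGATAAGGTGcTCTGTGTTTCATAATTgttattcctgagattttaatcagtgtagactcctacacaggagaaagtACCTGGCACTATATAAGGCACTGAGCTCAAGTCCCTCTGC
Defb8: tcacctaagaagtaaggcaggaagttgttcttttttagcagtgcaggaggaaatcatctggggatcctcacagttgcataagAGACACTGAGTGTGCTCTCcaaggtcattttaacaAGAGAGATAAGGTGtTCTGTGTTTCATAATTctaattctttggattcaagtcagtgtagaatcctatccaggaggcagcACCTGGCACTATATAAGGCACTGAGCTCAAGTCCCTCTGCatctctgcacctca
In the alignment of the pair, 192 of 236 aligned bases (81.4%) were identical. The capitals cover 89 bases in 4 runs, the longest of 40 bases, which ends at the start of Defb6 and a short stretch before that of Defb8. The letters TTNNGNAA, a short form of the C/EBP motif searched on both strands, occurred at 3 places in Defb6, from -209, -166 and -98 counted from the start, and at 2 places in Defb8, from -177 and -112. Of 32851 mouse promoters of the same kind, 36.8% held these letters, so such matches are common. A TATA box in the longer form TATANAAN, a search added after the sequences were seen, matched both within the longest shared run, from -31 in Defb6 and from -45 in Defb8, and 10.4% of promoters held it. The shorter form TATAAA (12.4% of promoters), an AP-1 motif as TGANTCA (6.75%) and a STAT motif as TTCNNNGAA (7.02%) had no match in either sequence. A match describes letters in this window and says nothing on binding.

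Defb6 was by far the most abundant of the 9 genes, with a mean of 731.5 FPKM over the 12 samples and rank 64 among all genes. On day 0 it was at 526, 490 and 399 FPKM in WT replicates 1 to 3 and at 1830, 1500 and 817 FPKM in those of Cthrc1-/-. On day 7 the WT values were 138, 287 and 335 FPKM, and Cthrc1-/- values 755, 1053 and 647 FPKM. On each day the lowest Cthrc1-/- sample lay above the highest WT sample, and in both genotypes the day 7 mean was below the day 0 mean.

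On day 0 the difference between genotypes was 1.47 on the log2 scale (SE 0.362), from 472 ± 65.3 to 1383 ± 517 FPKM (SD, n = 3 each), with an edgeR adjusted p of 0.0463. On day 7 it was 1.65 (SE 0.364), from 253 ± 103 to 819 ± 210 FPKM (SD, n = 3 each), with an edgeR adjusted p of 0.534. DESeq2 called the day 7 difference (adjusted p 0.00366). Its unadjusted edgeR p was 0.00104, and its rank by p among 14313 genes was 27. A difference averaged over both days, a contrast chosen after seeing the data, was 1.56 (SE 0.257) with an edgeR adjusted p of 0.0348. That averaged call held in 3 of the 12 fits that each left out 1 library (edgeR adjusted p 0.0135 to 0.110). It was lost with the replicate number as a block (edgeR adjusted p 0.0542) and with the hair follicle covariate (edgeR adjusted p 0.0584). The day 0 call was lost in fits with only the day 0 samples (edgeR adjusted p 0.0849) with the hair follicle level as covariate (edgeR adjusted p 0.240, log2 difference 2.24), with no filter on low genes (edgeR adjusted p 0.0712), and with limma on log2(FPKM + 1) (adjusted p 0.0530). It was also lost without any one of 10 of the 12 libraries, and held without Cthrc1-/- day 0 replicate 3 or WT day 7 replicate 1. Over all 12 of these fits the edgeR adjusted p ran from 0.0246 to 0.144 and the log2 difference stayed between 1.18 and 1.77.

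Keratinocyte markers were examined beside Defb6. The summed level of 12 interfollicular keratinocyte genes was 9988 to 10770 FPKM in WT day 0 and 4552 to 10270 FPKM in Cthrc1-/- day 0. No Cthrc1-/- day 0 sample was above the WT range of this sum, but its genes did not move alike. Krt14 was at 3064, 3297 and 1775 FPKM in Cthrc1-/- day 0 replicates 1 to 3, against 2013 to 2568 FPKM in WT day 0. Krt10 was lower there, at 175 to 962 FPKM against 1417 to 1665 FPKM. The sum of 7 wound keratinocyte genes was 969 to 1066 FPKM in WT day 0 and 2326 to 3758 FPKM in Cthrc1-/- day 0, without overlap. Of those 7 genes, Krt16, Krt17 and Sprr1b were called higher on day 0, where 3.51% of all genes were. On day 7 that sum was 1018 to 3369 FPKM in WT and 1959 to 3947 FPKM in Cthrc1-/-, with overlap. The interfollicular sum on day 7 was 2389, 6383 and 10230 FPKM in WT replicates 1 to 3, rising in the same order as Defb6. In Cthrc1-/- day 7 it was 7422 to 8252 FPKM, within the WT range. Fibroblast genes were lower in the Cthrc1-/- day 0 samples. The part of these levels in the Defb6 differences between genotypes and between days was not tested.

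With edgeR over all 12 samples, the change of Defb6 between days did not pass in either genotype. All 3 WT day 7 samples lay below the WT day 0 range, with a log2 difference of -1.11 (SE 0.359, edgeR adjusted p 0.0654). This difference passed with DESeq2 (adjusted p 0.0200) and with edgeR without Cthrc1-/- day 0 replicate 3 (adjusted p 0.0246). In Cthrc1-/- the difference was -0.93 (SE 0.358, edgeR adjusted p 0.206), and the highest day 7 sample overlapped the lowest of day 0. The interaction of genotype and day was 0.18 with an edgeR adjusted p of 0.881. Over the 12 samples the genes most like Defb6 by Pearson correlation of log2(FPKM + 1) were Skint2 (r = 0.982), Txnrd3 (r = 0.950) and Alox12e, an epidermal lipoxygenase gene (r = 0.949).

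**Figure D1:**
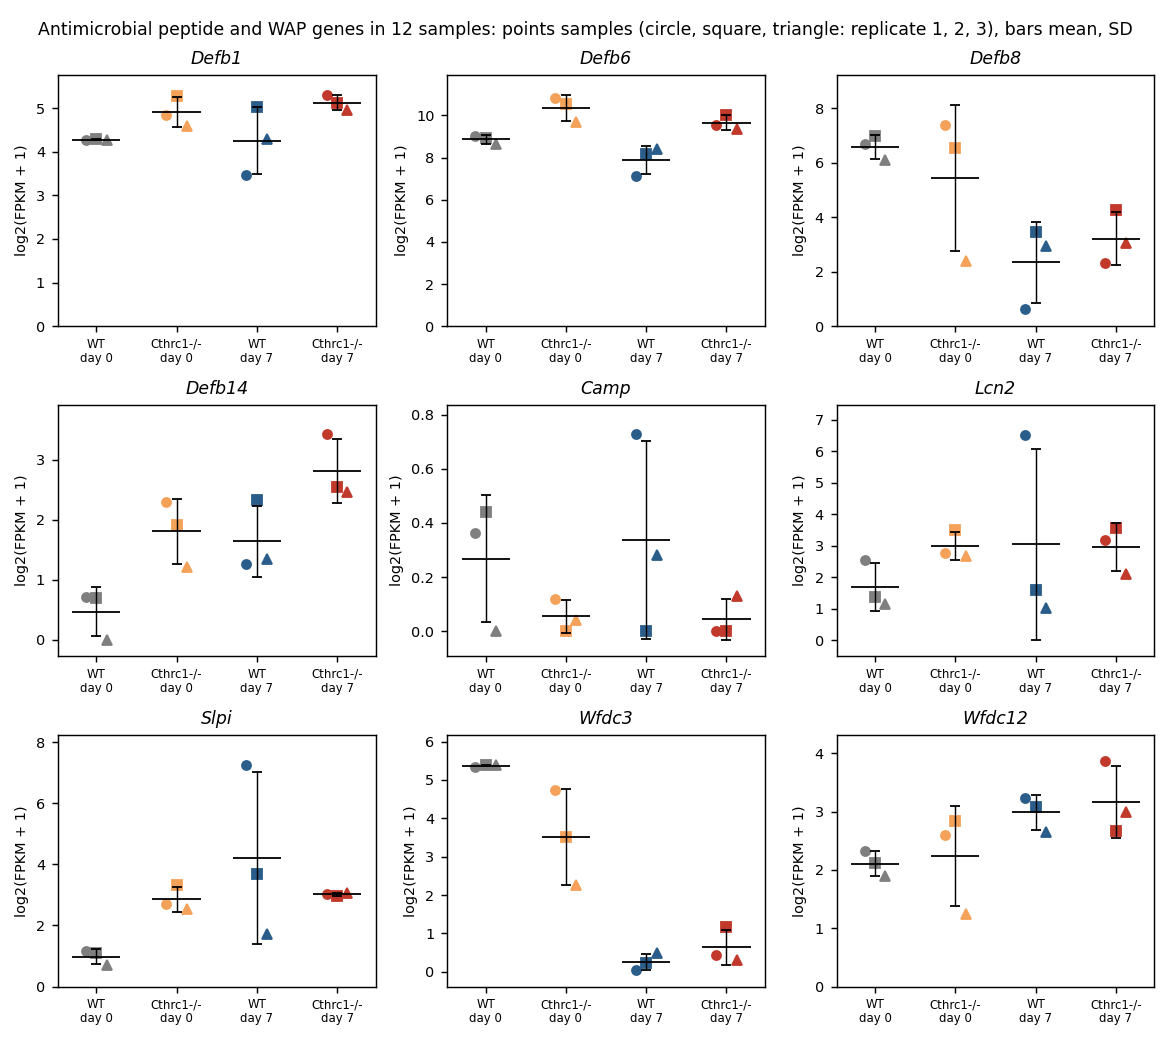
Level of each of the 9 genes in log2(FPKM + 1) on the y axis, by group of genotype and day on the x axis. Points are samples (circle, square and triangle for replicates 1, 2 and 3), the bar is the mean and the whisker the SD of 3 samples. Defb6 is higher in Cthrc1-/- on both days, Wfdc3 is near 0 in the 6 day 7 samples, and the circle of WT day 7 stands above the other 11 samples for Lcn2 and Slpi.

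Defb8 had lower means on day 7 than on day 0 in both genotypes. Its level was 103, 125 and 68.0 FPKM in WT day 0 and 168, 92.7 and 4.28 FPKM in Cthrc1-/- day 0. In WT day 7 it was at 0.559, 9.895 and 6.654 FPKM, and in Cthrc1-/- day 7 at 4.034, 18.45 and 7.228 FPKM. Both WT groups were wholly separate, while Cthrc1-/- day 0 replicate 3 was as low as the day 7 samples.

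The WT mean of Defb8 on day 7 was 17.3-fold below that on day 0 (98.5 ± 28.6 and 5.70 ± 4.74 FPKM, SD, n = 3 each), with a fitted log2 change of -4.33 (SE 1.26). In Cthrc1-/- the means were 88.3 ± 81.9 and 9.91 ± 7.57 FPKM (SD, n = 3 each), an 8.92-fold difference. These are the values by which the gene was known, and no test is drawn from them. Between genotypes the log2 difference was -0.21 on day 0 (SE 1.09, edgeR adjusted p 0.915) and 0.77 on day 7 (SE 1.12, edgeR adjusted p 0.997). Both use the WT values that selected the gene and are a description as well. Without Cthrc1-/- day 0 replicate 3 the day 0 difference was 0.35, and with the hair follicle level as covariate it was 1.67, so its sign depended on that library and that level. The transcript of Defb8 has relatives rather than copies: the closest were Defb7 at 84.5% identity, listed at 0 in all samples, and Defb3 at 83.5%, with a mean of 0.641 FPKM.

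Wfdc3 encodes a WAP domain protein, and it too was lower on day 7. In WT day 0 it was at 39.7, 40.6 and 40.9 FPKM, with an SD of 0.636 FPKM. In WT day 7 it was at 0.0431, 0.174 and 0.395 FPKM, with between 8 and 71 counts. The Cthrc1-/- samples were at 25.9, 10.5 and 3.77 FPKM on day 0 and at 0.365, 1.24 and 0.244 FPKM on day 7. Every day 7 sample lay below every day 0 sample in both genotypes.

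The ratio of day 0 to day 7 means of Wfdc3 was 198 in WT and 21.7 in Cthrc1-/-, with fitted log2 changes of -7.84 (SE 1.07) and -4.62 (SE 0.920). As for Defb8, these falls were known when the gene was listed. The fitted difference between the 2 falls was 3.22 (SE 1.18), a description as well, since it draws on the WT fall that selected the gene. On day 0 all 3 Cthrc1-/- samples were below all 3 WT samples, with a log2 difference of -1.66 (SE 0.805, edgeR adjusted p 0.204). With the hair follicle level as covariate that difference was 0.62. On day 7 it was 1.56 (SE 0.864, edgeR adjusted p 0.956) with 8 to 244 counts per sample. The genotype differences of both days use the WT values that selected the gene, so they too are a description.

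Wfdc3 and Defb8 had a Pearson r of 0.89 over the 12 samples. Both were selected on their WT fall, and 6 of the 12 samples are those WT samples, so a high r follows in part from the selection. In Cthrc1-/- day 0 both were highest in replicate 1 and lowest in replicate 3, while the hair follicle sum was lowest in replicate 1 and highest in replicate 3. That sum was below 18.1 FPKM in the 3 WT day 0 samples, where both genes were high, and between 548 and 5902 FPKM in the day 7 samples of both genotypes, where both were low. Fitted with the hair follicle level as covariate, the WT change of Wfdc3 between days was -5.24 and that of Defb8 -2.0004. Genes most like Wfdc3 were Cck, a peptide hormone gene (r = 0.986), Serpinb11 (r = 0.981) and Rasd1 (r = 0.981). Those most like Defb8 were Ces1d (r = 0.972), Acsl5 (r = 0.972) and Cyp2j12 (r = 0.968), of which Ces1d encodes a carboxylesterase and Acsl5 a fatty acid ligase. The sum of 14 sebaceous gland genes was 435 to 563 FPKM in WT day 0 and 159 to 292 FPKM in WT day 7, and 248 to 687 and 308 to 353 FPKM in Cthrc1-/-. The part of follicle and gland levels in these patterns was not tested beyond the covariate fit.

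**Figure D2:**
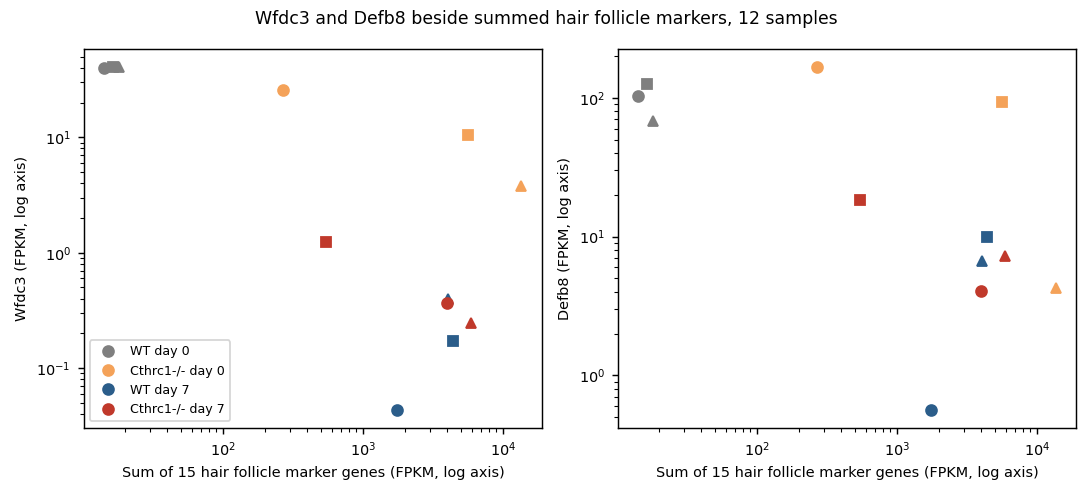
Wfdc3 (left) and Defb8 (right) in FPKM on log y axes against the summed FPKM of 15 hair follicle genes on log x axes, 1 point for each of the 12 samples, coloured by group, with circle, square and triangle for replicates 1, 2 and 3. WT day 0 samples sit at the upper left, the day 7 samples lie lower and to the right, and the 3 Cthrc1-/- day 0 samples run down from left to right.

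Defb1, the constitutive beta-defensin of many epithelia, passed in no comparison. It was at 18.4, 18.5 and 18.3 FPKM in WT day 0 and at 27.7, 37.9 and 23.3 FPKM in Cthrc1-/- day 0. On day 7 the WT samples spread from 10.02 through 18.6 to 31.4 FPKM, and the Cthrc1-/- samples were at 38.4, 33.7 and 30.3 FPKM. Groups did not overlap on day 0 but overlapped on day 7. The log2 difference between genotypes was 0.59 on day 0 (SE 0.328, edgeR adjusted p 0.260) and 0.72 on day 7 (SE 0.328, edgeR adjusted p 0.909), and neither passed. Between days it was -0.09 in WT (edgeR adjusted p 0.879) and 0.04 in Cthrc1-/- (edgeR adjusted p 0.967). The genes most like it were Tprg (r = 0.898), Abl2 (r = 0.897) and 2310046K23Rik (r = 0.886).

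Defb14, an inducible beta-defensin of keratinocytes, was low throughout, with at most 157 counts in a sample. WT day 0 samples held 8, 11 and 0 counts (0.634, 0.622 and 0 FPKM), and Cthrc1-/- day 0 samples were at 3.89, 2.76 and 1.33 FPKM. On day 7 the WT values were 1.41, 4.03 and 1.54 FPKM and the Cthrc1-/- values 9.73, 4.83 and 4.55 FPKM. No group overlapped its counterpart of the other genotype or the other day, yet no difference passed with edgeR. The log2 difference between genotypes was 2.51 on day 0 (SE 0.838, edgeR adjusted p 0.0929) and 1.38 on day 7 (SE 0.754, edgeR adjusted p 0.954). Between days it was 2.18 in WT (SE 0.833, edgeR adjusted p 0.102) and 1.05 in Cthrc1-/- (SE 0.749, edgeR adjusted p 0.5004). DESeq2 called both the day 0 difference (adjusted p 0.0163) and the change in WT (adjusted p 0.0312).

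The genes most like Defb14 included the cornified envelope genes Sprr2e (r = 0.955) and Sprr2a2 (r = 0.942), and the gasdermin gene Gsdmc (r = 0.939). The means of Sprr2a2 in WT and Cthrc1-/- were 12.9 and 73.0 FPKM on day 0 and 119 and 387 FPKM on day 7, the same order as the wound keratinocyte gene Krt16 at 28.9, 229, 362 and 560 FPKM. Defb14 group means were 0.419, 2.66, 2.33 and 6.37 FPKM, so both middle groups stood within their spread of each other.

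Lcn2, which encodes a protein that binds bacterial iron carriers, was high in 1 library. WT day 7 replicate 1 was at 92.0 FPKM, while replicates 2 and 3 were at 2.00 and 1.03 FPKM. WT day 0 samples were at 4.91, 1.62 and 1.22 FPKM. The Cthrc1-/- samples lay between 3.33 and 10.9 FPKM on both days, with 5.81, 10.3 and 5.47 FPKM on day 0 and 8.13, 10.9 and 3.33 FPKM on day 7.

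The Lcn2 change between days in WT was 3.56 on the log2 scale (SE 1.47, edgeR adjusted p 0.125) with that library and -0.90 without it. Between genotypes on day 7 the difference was -2.29 (SE 1.39, edgeR adjusted p 0.957) with it and 2.26 without it (edgeR adjusted p 1). On day 0 all 3 Cthrc1-/- samples were above all 3 WT samples, by 1.38 (SE 1.36, edgeR adjusted p 0.526). The change between days in Cthrc1-/- was -0.11 (edgeR adjusted p 0.979).

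Slpi had the same high library and a wider reach. It was at 1.23, 1.13 and 0.616 FPKM in WT day 0 and at 151, 11.7 and 2.29 FPKM in WT day 7 replicates 1 to 3. The Cthrc1-/- samples were at 5.54, 9.04 and 4.82 FPKM on day 0 and at 7.17, 6.84 and 7.37 FPKM on day 7. All 3 WT day 7 samples were above all WT day 0 samples, but they spanned a wide range, whereas the Cthrc1-/- day 7 samples were nearly equal.

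In WT the rise of Slpi to day 7 was 5.71 on the log2 scale (SE 1.33), from 0.992 ± 0.330 to 55.0 ± 83.2 FPKM (SD, n = 3 each), with an edgeR adjusted p of 0.0229. Without WT day 7 replicate 1 it was 2.68 with an edgeR adjusted p of 0.0287. The call was lost without any one of the 3 WT day 0 libraries (edgeR adjusted p 0.0774 to 0.0898), with only the WT samples fitted (edgeR adjusted p 0.0772) and with the hair follicle level as covariate (edgeR adjusted p 0.0965). It was lost too with limma on log2(FPKM + 1), where the change was 3.23 (adjusted p 0.0611). In Cthrc1-/- the change was -0.03 (SE 1.08, edgeR adjusted p 0.992). The interaction was -5.73 (SE 1.65, edgeR adjusted p 0.205), and without that library -2.66 (edgeR adjusted p 0.209). DESeq2 called it, with an adjusted p of 0.00310, so the call depended on the tool. Between genotypes Slpi differed by 2.59 on day 0 (SE 1.16, edgeR adjusted p 0.175, DESeq2 adjusted p 0.0434), with no overlap of the samples, and by -3.15 on day 7 (SE 1.17, edgeR adjusted p 0.907). Without WT day 7 replicate 1 the day 7 difference was -0.021, and the day 0 difference was called (2.64, edgeR adjusted p 0.0278).

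Neutrophil markers stood beside both genes. On day 0 their sum ran from 59.1 to 68.4 FPKM among WT samples and from 45.2 to 131 FPKM among Cthrc1-/- samples. On day 7 the ranges were 84.1 to 5611 FPKM and 421 to 1197 FPKM. The mature neutrophil gene Ly6g was at 19.6 FPKM in WT day 7 replicate 1 and had at most 8 counts in every other sample, and the receptor gene Cxcr2 was at 52.4 FPKM there. Elane, which encodes the elastase that the Slpi protein inhibits, had 0 counts in all 9 samples outside WT day 0 and at most 28 counts within it. S100a8 and S100a9, which wound keratinocytes express too, made up most of the sum in the day 7 samples other than WT replicate 3. Without these genes the other 18 summed to 992 FPKM in WT day 7 replicate 1, to 58.2 and 47.6 FPKM in replicates 2 and 3, and to 39.8 to 48.8 FPKM in Cthrc1-/- day 7, beside 53.9 to 59.1 FPKM in WT day 0. Of that sum Il1r2 alone was 47.5 to 50.1 FPKM in WT day 0. On day 7 it was at 275, 25.8 and 36.1 FPKM in WT replicates 1 to 3 and at 18.8 to 21.2 FPKM in Cthrc1-/-. The sum therefore does not show how the remaining genes moved. Over the 12 neutrophil genes tested, S100a8 and S100a9 included, the median log2 change between days was 6.24 in WT and 2.03 in Cthrc1-/-. The part of these markers in the Slpi and Lcn2 levels was not tested.

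**Figure D3:**
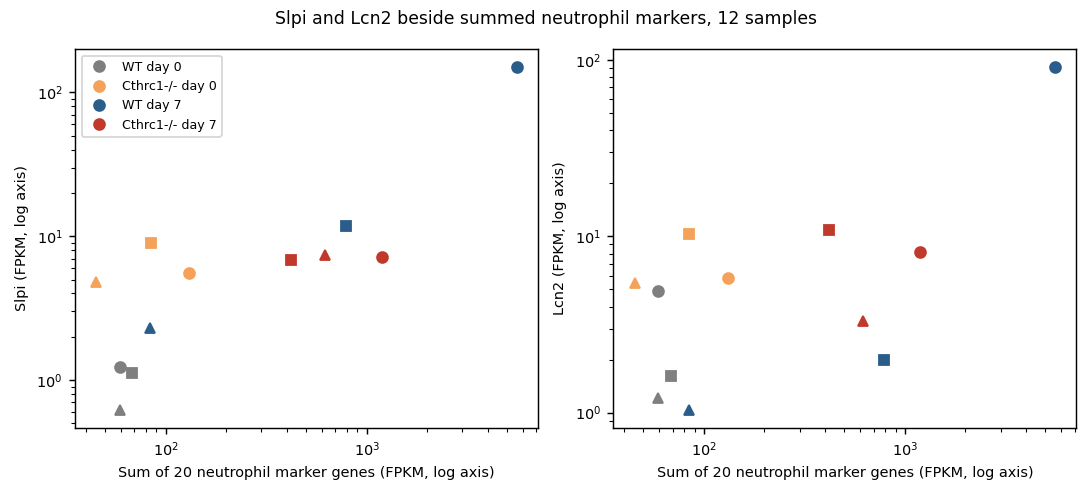
Slpi (left) and Lcn2 (right) in FPKM on log y axes against the summed FPKM of 20 neutrophil genes on log x axes, 1 point for each of the 12 samples, coloured by group, with circle, square and triangle for replicates 1, 2 and 3. WT day 7 replicate 1 is alone at the upper right at 5611 FPKM of neutrophil genes, and the other 11 samples are at or below 11.7 FPKM for Slpi and 10.9 FPKM for Lcn2.

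The genes most like Slpi were the apoptosis gene Bcl2l11 (r = 0.958), Tes (r = 0.946) and the thiol reductase gene Ifi30 (r = 0.946), and those most like Lcn2 were Slc23a2, Tmem243 and Ldha (r = 0.949, 0.944 and 0.934). The annotated span of Slpi holds the miRNA gene Mir7678 on the same strand, whose mean was 2.92 FPKM.

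Camp, which encodes the single mouse cathelicidin, was near the floor in every sample. On day 0 it had counts of 13, 24 and 0 in WT replicates 1 to 3 and of 5, 0 and 2 in Cthrc1-/-. Those of day 7 were 35, 0 and 12 in WT and 0, 0 and 5 in Cthrc1-/-. The highest level was 0.656 FPKM, again in WT day 7 replicate 1, and 5 of the 12 samples held no count. With no filter on low genes, edgeR adjusted p-values for Camp were 0.573 and 0.881 between genotypes on day 0 and day 7, and 1 and 0.990 between days in WT and Cthrc1-/-. A difference in Camp was not detectable at this depth.

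Wfdc12, a WAP gene of the same chromosome 2 cluster, was at 3.99, 3.33 and 2.72 FPKM in WT day 0 and at 5.08, 6.17 and 1.38 FPKM in Cthrc1-/- day 0. On day 7 it was at 8.43, 7.44 and 5.31 FPKM in WT and at 13.5, 5.36 and 6.92 FPKM in Cthrc1-/-. The WT samples of the 2 days did not overlap, and those of Cthrc1-/- did. The change between days was 0.91 in WT (SE 0.541, edgeR adjusted p 0.274) and 0.84 in Cthrc1-/- (edgeR adjusted p 0.446). Between genotypes it differed by 0.26 on day 0 (SE 0.539, edgeR adjusted p 0.783) and by 0.19 on day 7 (SE 0.535, edgeR adjusted p 0.998). The gene overlaps the antisense gene A730032A03Rik, which shares 128 bases with it and had a mean of 0.0971 FPKM. Libraries were strand specific per the labels, but the strand setting of the counting is not given in the sources used here. Most like Wfdc12 were the lysosomal membrane gene Lamp2 (r = 0.940), the lipid antigen presenting gene Cd1d1 (r = 0.907) and Mospd2 (r = 0.887).

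The counts of called genes were set beside those of the whole table. Between genotypes on day 0, Defb6 was the 1 gene of 8 tested that passed, where 5.78% of all 14313 genes did and 3.51% were higher, and 3 of 8 had an unadjusted p under 0.05 where 28.4% of all genes did. On day 7, 0 of 8 were called by edgeR where 0.0210% of all genes were, 2 of 8 had an unadjusted p under 0.05 where 5.46% of all genes did, and DESeq2 called Defb6. Samples of the genotypes did not overlap for 6 of the 8 genes on day 0, where 41.4% of all genes did not, with Defb1, Defb6, Defb14, Lcn2 and Slpi above WT (21.5% of all genes) and Wfdc3 below (19.8%). Wfdc3 had been selected on its WT values, so nothing is read from its place below WT. They did not overlap for Defb6 and Defb14 on day 7, where 9.13% of all genes did not and 6.46% were wholly above WT. The median log2 difference of the 8 genes was 0.99 on day 0 and 0.75 on day 7, beside -0.05 and -0.01 over all genes tested. The genes were listed with earlier results in view, Defb8 and Wfdc3 on these WT values, so nothing is read from the medians.

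Between days in WT, 3 of 8 were called, Slpi higher and Defb8 and Wfdc3 lower, where 13.1% of all genes were called, 6.04% higher and 7.10% lower. An unadjusted p under 0.05 was reached by 6 of 8, where 32.5% of all genes did. Nothing is read from that count, as 2 of the 3 were listed for it. In Cthrc1-/-, 1 of 8 was called, Wfdc3, where 1.46% of all genes were called and 0.601% were lower. There 3 of 8 had an unadjusted p under 0.05, Defb6, Defb8 and Wfdc3, where 18.1% of all genes did. The falls of Defb8 and Wfdc3 were known when they were listed, so nothing is read from either count. By edgeR the interaction of genotype and day was called for 0 of 8, where 0.0140% of all genes were called. DESeq2 called it for Slpi. Slpi and Wfdc3, 2 of 8, had an unadjusted p under 0.05 for the interaction, where 15.1% of all genes did. The Wfdc3 value draws on the WT fall that selected the gene, so nothing is read from that count. Averaged over both days, 1 of 8 differed between genotypes, Defb6, where 0.559% of all genes did and 0.412% were higher. An unadjusted p under 0.05 was reached by 3 of 8 there, where 21.1% of all genes did. WT samples of the 2 days did not overlap for 6 of 8 genes, 3 wholly above and 3 wholly below, where 44.0% of all genes did not, 29.8% above and 14.1% below. The 3 below were Defb6 and the genes selected on this fall, Defb8 and Wfdc3. Cthrc1-/- samples did not overlap for Defb14, above, and Wfdc3, below, where 26.5% of all genes did not, 21.5% above and 4.99% below. The fall of Wfdc3 was known when it was listed, so nothing is read from its place below. The comparisons share samples, so the counts are not independent of each other.

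**Figure D4:**
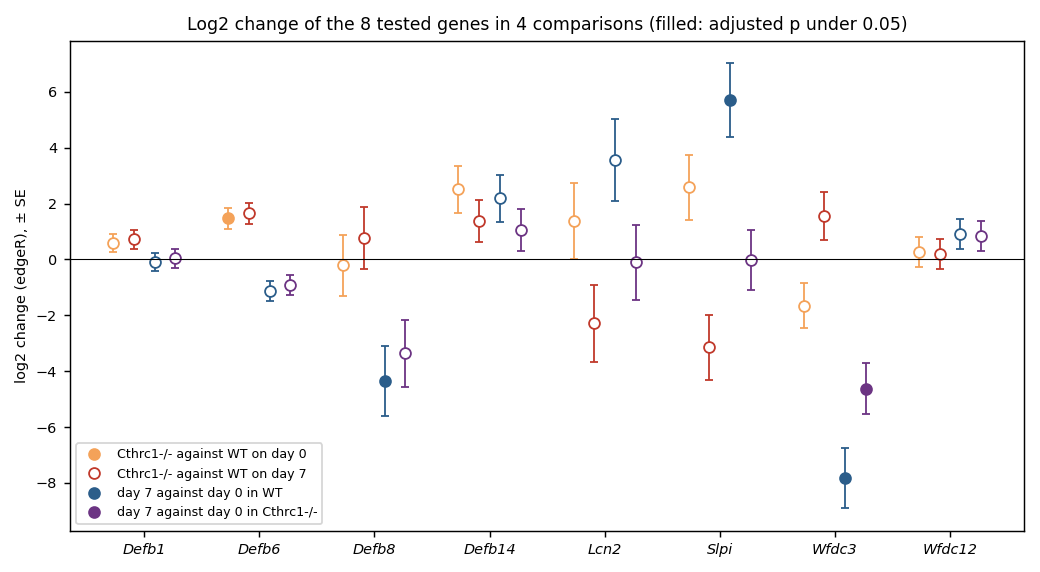
Log2 change fitted by edgeR with its SE on the y axis for the 8 tested genes on the x axis, coloured by comparison, with filled points where the adjusted p was under 0.05. Filled points are Defb6 between genotypes on day 0, Defb8, Slpi and Wfdc3 between days in WT, and Wfdc3 between days in Cthrc1-/-. Defb8 and Wfdc3 were selected on their WT change between days, and the fall of Wfdc3 in Cthrc1-/- was known too. The filled points of these genes are a description and support nothing.

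Among themselves the 8 genes fell along a few axes. Lcn2 and Slpi had r = 0.85, both highest in WT day 7 replicate 1. Wfdc3 and Defb8 had r = 0.89, a value fixed in part by the selection of both on the same WT samples. Defb1 correlated with Defb6 and with Defb14 at r = 0.73 each, and Defb14 with Wfdc12 at r = 0.71. Slpi ran opposite to Wfdc3 and to Defb8, with r = -0.64 for each. Since Wfdc3 and Defb8 were selected on their WT fall, any r with either gene follows in part from that selection. Defb6 and Defb8, which share the upstream sequence shown above, had r = 0.53, and Defb6 and Defb14, 30.3 kb apart, had r = 0.39. Each value is over 12 samples that share libraries and group structure and is a description.

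**Figure D5:**
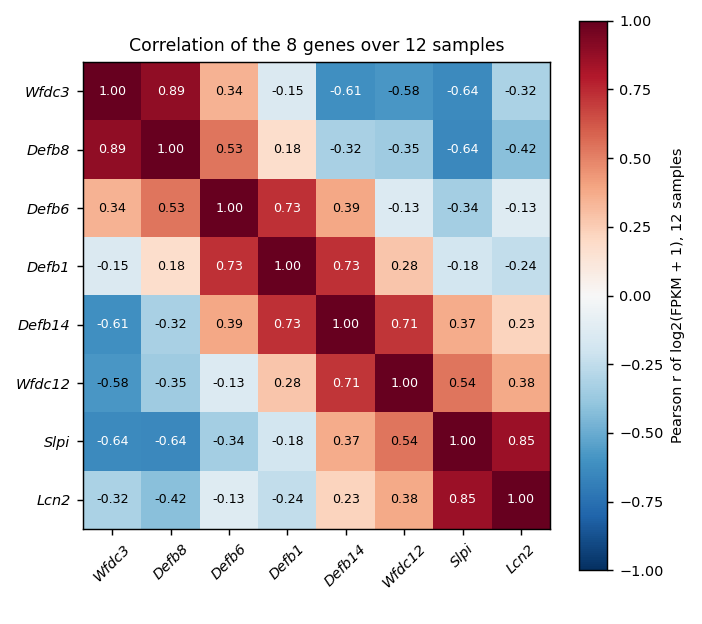
Pearson r of log2(FPKM + 1) over 12 samples for each pair of the 8 tested genes, as a coloured grid with genes on both axes and the value in each cell. The darkest cells off the diagonal are Wfdc3 with Defb8 (0.89), both selected on WT values of the 2 days, and Slpi with Lcn2 (0.85).

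The beta-defensin family around these genes was mostly silent in the samples. Of 43 beta-defensin genes in the table, 28 had 0 counts in all samples, and the 4 that passed the filter on low values were Defb1, Defb6, Defb8 and Defb14. Defb4, which lies between Defb14 and Defb6, was at 0 in WT day 0 and averaged 1.72 ± 1.02 FPKM in Cthrc1-/- day 0 (SD, n = 3), with 0.135 and 0.889 FPKM in the day 7 groups of WT and Cthrc1-/-. Defb3 had means of 0.164 and 0.661 FPKM on day 0 and 0.100 and 1.64 FPKM on day 7 in WT and Cthrc1-/-. Defb2 was at or below 0.474 FPKM in every group mean. None of these 3 was tested, since their means over all samples were below 1 FPKM.

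The WAP family had 23 genes in the table, of which 8 had 0 counts in all samples. The filter was passed by 10, 7 of them besides Slpi, Wfdc3 and Wfdc12. Of those 7, Wfdc18 was called higher in Cthrc1-/- on day 0, at 21.2 ± 13.4 against 2.99 ± 2.17 FPKM (SD, n = 3 each), a log2 difference of 2.69 with an edgeR adjusted p of 0.0454. Wfdc17 was called higher on day 7 in WT, at 201 ± 248 against 21.8 ± 3.01 FPKM (SD, n = 3 each, log2 change 3.12) with an edgeR adjusted p of 0.0400, and its WT day 7 samples ran from 33.0 to 485 FPKM. Of all genes, 3.51% were called higher between genotypes on day 0 and 6.04% between days in WT. Wfdc21 lay between 15.7 and 26.2 FPKM in its group means and passed in no comparison. On chromosome 2, Wfdc5, next to Wfdc12, was tested too and did not pass, with group means of 2.71 to 5.65 FPKM. The same held for Wfdc1, Wfikkn1 and Wap, the last at 63.7 FPKM in 1 WT day 0 sample and with a mean of 0 FPKM on day 7.

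Among 16 tested of 29 other antimicrobial genes, 0 were called between genotypes on either day by edgeR, with 6 and 5 at an unadjusted p under 0.05 on day 0 and day 7, where 28.4% and 5.46% of all genes were. Between days in WT, 4 were called higher and 3 lower, where 6.04% and 7.10% of all genes were. The calprotectin gene S100a9 rose from 5.11 ± 2.04 to 1305 ± 1836 FPKM (SD, n = 3 each, log2 change 7.92, edgeR adjusted p 0.0162), with 24.0 FPKM in its lowest and 3409 FPKM in its highest WT day 7 sample. The cornified envelope gene Sprr2a1 rose from 18.8 ± 12.2 to 161 ± 104 FPKM (SD, n = 3 each, log2 change 2.91, edgeR adjusted p 0.0176). Lyz2, the lysozyme gene of macrophages and neutrophils, was at 188 and 516 FPKM on the 2 days and did not pass (log2 change 1.33, edgeR adjusted p 0.0930).

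Of 34 cytokine, receptor and transcription factor genes listed as regulators of these peptides, 27 were tested. Between genotypes 0 were called by edgeR, with 4 and 6 at an unadjusted p under 0.05 on day 0 and day 7, where 28.4% and 5.46% of all genes were. Between days in WT, Il17rc, Traf3ip2 and Il1a were called, 1 higher and 2 lower, where 6.04% and 7.10% of all genes were. The cytokine gene Il1b averaged 10.4 ± 1.57 FPKM in WT day 0 and 238 ± 383 FPKM in WT day 7 (SD, n = 3 each), with 680 FPKM in 1 sample (log2 change 4.46, edgeR adjusted p 0.0628). Cebpb and Cebpa, which encode C/EBP transcription factors, passed in no comparison, with group means of 42.8 to 83.9 and 41.5 to 54.3 FPKM.

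Of 21 proteases, receptors and other partners of these peptides, 16 were tested. On day 0 there was 1 call, where 5.78% of all genes were called. Klk7, a kallikrein protease of the outer epidermis, was higher in Cthrc1-/-, at 147 ± 56.3 against 35.6 ± 2.80 FPKM (SD, n = 3 each), a log2 difference of 1.94 with an edgeR adjusted p of 0.0329. In the comparison of days in WT the 1 call was Mmp9, higher on day 7, where 6.04% of all genes were. Klk5, a second kallikrein, and Grn, whose product Slpi protein protects from cleavage, passed in no comparison, with group means of 21.2 to 30.8 and 25.8 to 55.1 FPKM.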

How the data were processed

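RNA from 12 dermis samples was measured by strand-specific paired-end sequencing, per the labels' protocols. The submitters' processing notes name GRCm38, cutadapt 1.9, HISAT2 2.0.4, UMI-tools, StringTie 1.3.4d, DESeq2 and edgeR, without role or order. The table deposited by the authors holds FPKM and whole-number counts per gene. FPKM of genes with a count of 0 were deposited as 0.0001 and read as 0. Values at a count of 4 were 3.16 to 4.05 times as frequent as those at 3 and 5, so a low count need not be 1 fragment.

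Gene IDs were looked up in GENCODE M21, which named 55141 of 55401 genes. Groups came from sample titles. The deposited counts were fitted with edgeR 4.0.16 (quasi-likelihood test, TMM, two-sided, R 4.3.3), 12 samples in one fit, over the 14313 genes whose FPKM averaged 1 or more, with Benjamini-Hochberg adjustment over these genes. Genes under 0.05 count as called. The procedure was tested on simulated counts. The members and lists were chosen with earlier results of these data known, so adjusted p-values place a gene within the table and are no independent support. Named genes were the 9 members, the 3 genes of highest mean FPKM in each list, the 3 genes most correlated with each member, and the tested genes of both families; others were named after their values were seen, where a count was 5 or fewer. Alternatives were DESeq2 1.42.0, limma 3.58.1 on log2(FPKM + 1) computed from the deposited FPKM, no filter, total-count scaling, counts divided by 4, only the groups compared, the replicate number as a block, a hair follicle covariate, and each library left out. Transcripts were compared with BLAST 2.17.0.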

Additional observations from a re-analysis of the deposited data

How the results depend on the processing

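Of the 8 tested genes' calls, several were lost or gained with the fit. Genes among the 8 called between genotypes on day 0 numbered 1 as reported, 3 with DESeq2, and 0 with limma, no filter, only the groups compared, and the hair follicle covariate. On day 7 they numbered 0 and 1 with DESeq2. Between days in WT they numbered 3, 5 with DESeq2 and 0 with the hair covariate. The WT call of Slpi was also lost with limma and with only the groups compared, and that of Defb8 with no filter. In Cthrc1-/- the genes called numbered 1, 2 with DESeq2 and 0 with only the groups compared. For the interaction they numbered 0 and 1 with DESeq2, and for both days averaged 1, 2 with DESeq2 and 0 with the hair covariate.

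Over all genes, the day 0 count was 827 as reported, 2787 with DESeq2, 275 with no filter, 19 with only the groups compared and 10 with the hair covariate. On day 7 it was 3, 62 with DESeq2 and 8 with limma. In WT between days it was 1880, 3551 with DESeq2 and 30 with the hair covariate. In Cthrc1-/- it was 209, 1409 with DESeq2, 775 with limma, 747 with total-count scaling, 89 with only the groups compared and 495 with the hair covariate. For the interaction it was 2, 681 with DESeq2, 4 with limma, 1 with no filter or total-count scaling and 0 with the hair covariate. For both days averaged it was 80, 1467 with DESeq2 and 13 with the hair covariate. Total-count scaling moved the median log2 change of all genes to 0.196 in WT and 0.158 in Cthrc1-/- between days, and the share of higher calls from 46.0% to 75.5% and from 58.9% to 86.9%. On day 0 that share moved from 60.8% to 71.4%. The cause was not tested.

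The replicate numbers recur in all groups, and the labels do not say whether they pair the samples. Samples with the same number deviated from their groups with correlations of 0.0869, 0.0232 and 0.0743 between the WT days. Between the Cthrc1-/- days these were -0.0646, -0.124 and 0.426. Samples with different numbers had correlations of -0.0833 to 0.0157 between the WT days and of -0.453 to 0.52 between the Cthrc1-/- days. With 3 samples per group these values cannot decide whether samples are paired. With the number as a block, genes among the 8 called were 0 on day 0, 1 between days in WT, 0 in Cthrc1-/- and 0 for both days averaged, with adjusted p of 0.0554 for Defb6 on day 0 and 0.0547 for Slpi in WT (edgeR). Over all genes the block gave 883 on day 0, 2 on day 7, 1467 in WT, 291 in Cthrc1-/-, 1 for the interaction and 47 for both days averaged. Under the block, log2 changes that turned sign were 0.043 for Slpi between days in Cthrc1-/- and 0.080 for Wfdc12 in the interaction.

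Other sign changes were small or concerned values far from the threshold. With the hair covariate they were Defb8 and Wfdc3 on day 0 (1.67 and 0.62) and Defb6 and Defb8 in the interaction (-0.69 and -1.41). With total-count scaling they were Defb1 in WT (0.13) and Lcn2 and Slpi in Cthrc1-/- (0.068 and 0.16). With limma they were Slpi in Cthrc1-/- (0.16) and Wfdc12 in the interaction (0.059), and with only the groups compared Slpi in Cthrc1-/- (0.019). Counts divided by 4 changed no call or sign among the 41 values of the 8 genes.

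Leaving out each library in turn, genes among the 8 called ran from 0 to 2 on day 0, 0 to 0 on day 7, 1 to 4 in WT, 0 to 1 in Cthrc1-/-, 0 to 0 for the interaction and 0 to 1 for both days averaged. Over all genes they ran from 18 (without WT day 0 replicate 2 or 3) to 2146 (without Cthrc1-/- day 0 replicate 1), 0 to 4, 527 to 3005, 5 to 911, 0 to 242 and 14 to 590. Log2 changes that turned sign had these ranges: Defb1 -0.56 to 0.30 in WT, -0.15 to 0.28 in Cthrc1-/- and -0.22 to 0.60 in the interaction; Defb6 -0.13 to 0.47 in the interaction; Defb8 -1.10 to 0.35 on day 0 and -0.057 to 1.44 on day 7. For Lcn2 they were -2.86 to 2.26 on day 7, -0.90 to 4.41 in WT, -0.49 to 0.27 in Cthrc1-/- and -4.51 to 0.83 in the interaction. For Slpi the range was -0.24 to 0.31 in Cthrc1-/-, and for Wfdc12 -0.13 to 0.69 on day 0, -0.30 to 0.43 on day 7 and -0.56 to 0.32 in the interaction. Camp held at most 35 counts and Defb14 at most 157 in a sample, and each group has 3 samples.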
